A study of Mus musculus with 8 samples.

Results

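The genes described here are the box C/D small nucleolar RNAs (snoRNAs) whose symbol starts with Snord, measured in DC-restricted progenitors (CDPs) from the bone marrow of mice on a high fat diet (HFD) or a control diet (CF). Which genes belong to the set was decided by annotation, not by their values: Ensembl identifiers of the count table were matched to GENCODE vM21, and every row of the biotype snoRNA with a symbol starting with Snord was kept. This gave 76 of the 16119 genes in the table. GENCODE vM21 holds 98 such genes, and the other 22 were not analysed here because the table has no row for them; they comprise the 17 members of the Snord116l cluster, Snord107, Snord64, Snord123, Snord91a and a further annotated gene also named Snord80. A filter on low counts left 74 members for the test, and the 2 others, Snord1a and Snord99, are described by their counts.

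All mice were C57BL/6, which the methods give as males of C57BL/6J. HFD mice are labelled DIO, the diet-induced obesity model, after 16 weeks on the diet, which held 60 kcal% fat; the methods instead give 16 weeks as the age of the mice at purchase, and this difference was not reconciled here. CF mice are labelled DIO-Control, matched in age, and their diet held 10 kcal% fat. CDPs were sorted as lineage-negative cells positive for CD115 and Flt3, with intermediate c-Kit and low Sca-1, about 50000 cells for each of 4 libraries per diet. The replicates are stated to be independent isolates, but not whether each came from 1 mouse or from pooled mice, so the p-values measure the spread between these isolates.

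Box C/D snoRNAs are short nuclear RNAs named for a C box near the 5′ end and a D box near the 3′ end, which bind a core of Snu13, Nop56, Nop58 and the methyltransferase fibrillarin (Fbl). Most pair through a stretch next to the D box, or next to an internal copy of it, with ribosomal RNA or U6 snRNA and direct 2′-O-methylation of the paired base, while a few are needed for the cleavage of the ribosomal RNA precursor instead. In mammals most are cut out of the introns of a host gene, often one for a ribosomal protein or another factor of translation, so that host and snoRNA share a promoter but not a fate after splicing.

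The sequences of the members on which the results turn are GENCODE vM21 transcripts on GRCm38, 5′ to 3′, with capitals for TGATGA within the first 25 nt (C box) and for CTGA within the last 25 nt (D box). Snord15a and Snord17 had the lowest p-values and are among the longest members, Snord118 (U8) and Snord33 followed, Snord1b and Snord1c are near copies of each other, and Snord49b had the highest level per length.
Snord15a, chr7:99482785-99482932, minus strand: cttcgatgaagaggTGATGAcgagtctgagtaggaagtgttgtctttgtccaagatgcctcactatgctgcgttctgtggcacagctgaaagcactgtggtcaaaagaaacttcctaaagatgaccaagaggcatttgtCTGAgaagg
Snord17, chr2:144265979-144266216, minus strand: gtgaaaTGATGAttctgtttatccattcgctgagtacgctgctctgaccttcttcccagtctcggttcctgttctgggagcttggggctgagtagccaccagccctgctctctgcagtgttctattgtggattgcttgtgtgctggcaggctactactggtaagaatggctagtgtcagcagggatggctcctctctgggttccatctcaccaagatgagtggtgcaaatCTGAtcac
Snord118, chr11:69073427-69073561, plus strand: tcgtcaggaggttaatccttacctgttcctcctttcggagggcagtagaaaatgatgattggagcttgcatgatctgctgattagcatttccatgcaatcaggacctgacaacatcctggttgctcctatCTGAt
Snord33, chr7:45126864-45126947, minus strand: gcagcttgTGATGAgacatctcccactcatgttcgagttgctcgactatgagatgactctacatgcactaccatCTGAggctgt
Snord1b, chr11:116674148-116674222, plus strand: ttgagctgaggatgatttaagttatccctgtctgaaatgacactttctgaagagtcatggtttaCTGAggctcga
Snord1c, chr11:116672506-116672581, plus strand: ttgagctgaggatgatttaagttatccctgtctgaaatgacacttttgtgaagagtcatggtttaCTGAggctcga
Snord49b, chr11:62603079-62603150, plus strand: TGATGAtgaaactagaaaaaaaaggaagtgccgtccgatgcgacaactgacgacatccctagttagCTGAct

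On the RNA strand, CTGA stood in the last 25 nt of 75 of the 76 members, against 21.5% of the 5485 other annotated transcripts of 60 to 240 nt. TGATGA stood in the first 25 nt of 49 members, against 5.01% of the others. A member without these letters, such as Snord1b, has only no exact match in that window. Snord1b and Snord1c are 97.4% identical when aligned end to end, so reads kept as uniquely mapped may be split unevenly between them, and 12 members in all have a near-identical copy in the table.

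An antisense run of at least 11 nt to 18S rRNA that ended within 2 nt of a CTGA was found in 17 members (22.4%, against 0.365% of the other short transcripts). Such a run to U6 snRNA was found in 2 members, Snord7 and Snord8, against 0.0182% of the others. Snord45c and Snord14c are shown for 18S and Snord7 for U6, with capitals for the run and the CTGA after it.
Snord45c, chr3:153912125-153912204, minus strand: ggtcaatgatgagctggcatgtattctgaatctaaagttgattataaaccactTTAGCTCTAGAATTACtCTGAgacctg
Snord14c, chr9:40803583-40803668, plus strand: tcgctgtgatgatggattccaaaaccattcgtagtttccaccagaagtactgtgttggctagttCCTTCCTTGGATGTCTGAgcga
Snord7, chr11:83294304-83294400, plus strand: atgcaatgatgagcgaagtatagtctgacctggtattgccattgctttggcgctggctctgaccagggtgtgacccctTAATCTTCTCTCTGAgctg

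The members lay on 17 chromosomes. A host gene on the same strand contained 73 of the 76 members, with 50 hosts in all, and Snord13, Snord104 and Snord118 had none. In the annotation, 35 lay in an intron of every overlapping host transcript, 27 in an exon only of retained-intron transcripts and 11 in an exon of some other host transcript. Reads of the last 2 classes can belong to the host, and 5 members also had a gene on the other strand.

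The count table held between 28203651 and 48409689 counts per library. Flt3, Csf1r, Kit and Irf8, which mark the sorted cells, were present in every library, and the T cell marker Cd3e was at 1.67 CPM or less, where CPM are counts scaled to a common library size. HFD replicate 1 had the lowest Flt3, at 88.8 CPM against 227 to 378 CPM in the other 7 libraries, and the lowest Irf8, at 251 CPM against 372 to 674 CPM, while its Csf1r (93.6 CPM) and Kit (45.6 CPM) lay within the range of the others. The summed CPM of 5 neutrophil markers (S100a8, S100a9, Ngp, Camp and Ltf) ranged from 809 to 17087 in HFD and from 1632 to 5619 in CF, and HFD replicate 1 held the highest value. The 3 B cell markers summed to between 406 and 752 CPM in HFD and between 273 and 429 CPM in CF, and the 2 erythroid markers to between 30.4 and 131 CPM and between 27.1 and 43.1 CPM. Of the B cell markers, Cd79a was higher in every HFD library than in every CF library (log2 fold change 0.88; edgeR, unadjusted p = 0.0043, adjusted p = 0.17), and Ighm and Cd79b, whose diets overlapped, had log2 fold changes of 0.68 and 0.63 (unadjusted p = 0.016 and 0.023, adjusted p = 0.34 and 0.42). Whether cells of these types had a part in the results below was not tested, beyond the values given beside them.

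Snord RNA took a smaller share of the HFD libraries than of the CF libraries. All 76 members together held 0.302%, 0.576%, 0.668% and 0.717% of the counts in HFD replicates 1 to 4, and 1.33%, 1.10%, 1.03% and 0.861% in CF replicates 1 to 4. The ranges did not overlap, with HFD replicate 4 and CF replicate 4 nearest to each other. The means were 0.566% ± 0.186 (SD, n = 4) in HFD and 1.08% ± 0.193 (SD, n = 4) in CF, and their ratio was 1.91 and stayed between 1.65 and 2.09 when any 1 library was left out. Other short non-coding RNAs moved the same way, with a share of 10.6% ± 1.89 in HFD and 25.3% ± 4.95 in CF (SD, n = 4 each). Why the share was smaller was not tested. In these bulk libraries, less RNA per cell, fewer cells that hold it and a different recovery of short RNA cannot be told apart.

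Gene by gene, all 74 tested members had a fitted log2 fold change below 0 in HFD against CF (edgeR's quasi-likelihood test on TMM-scaled counts), as had 40.3% of all genes tested. Their median was -1.30, with a range from -1.83 (Snord42b) to -0.54 (Snord82), where the median of all 15837 genes tested was 0.05. A log2 fold change below -1 was seen in 61 members, against 4.39% of all genes. At an unadjusted p below 0.05, 66 members were lower (background 5.34%) and 0 were higher (3.22%). After Benjamini-Hochberg adjustment over all genes tested, 1 member, Snord15a, was lower (background 0.423%) and 0 were higher (0.0%). Every HFD library lay below every CF library in 36 members (background 3.58%), and the opposite was seen in 0 (2.58%).

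The count of calls turned on the test and on single libraries. DESeq2, which gave a p for 75 members, called 45 lower (background 3.13%) and had 68 lower at an unadjusted p below 0.05 (5.94%). In edgeR the count was 0 when any of HFD replicates 2, 3 and 4 or CF replicates 1, 2 and 3 was left out, where between 0.0% and 0.0063% of all genes were called lower, 6 without HFD replicate 1 (background 1.05%) and 8 without CF replicate 4 (0.968%). With HFD replicate 1 and CF replicate 1 both left out, an alternative chosen after seeing the data, 8 members were called (background 2.21%), 57 were lower at an unadjusted p below 0.05 (10.6%) and the median was -0.86. With the mean log2 CPM of the neutrophil markers as a covariate, also chosen after seeing the data, 61 members were called (background 3.49%), 73 were lower at an unadjusted p below 0.05 (7.68%) and the median was -1.51.

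**Figure D1:**
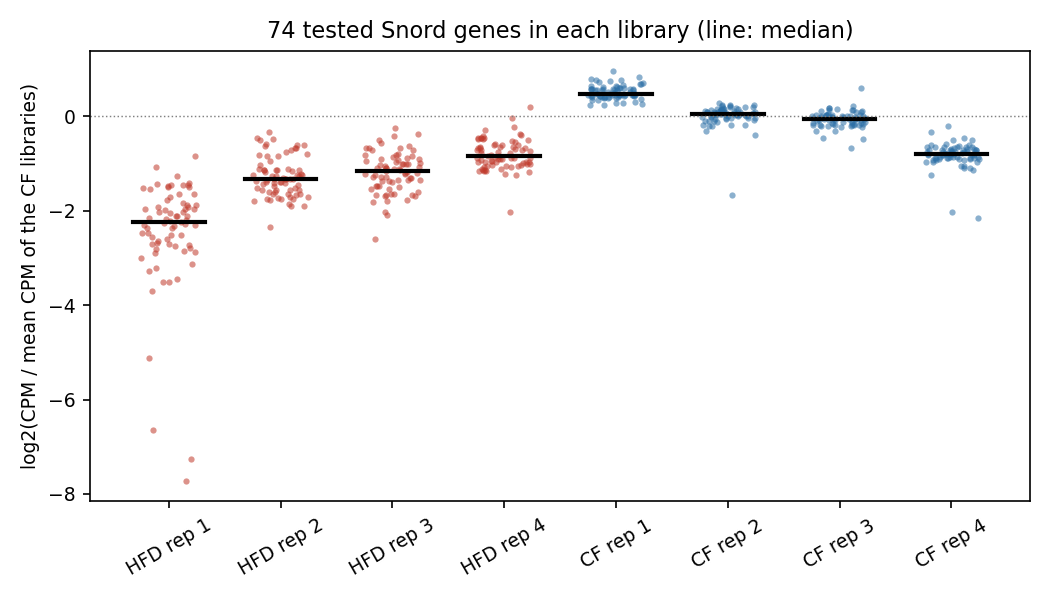
Log2 of the TMM-scaled CPM over the mean of the 4 CF libraries (vertical axis) for the 74 tested Snord genes in each of the 8 libraries (horizontal axis), with HFD in red, CF in blue and a line at the median; 1 value with a count of 0, Snord42a in HFD replicate 1, is not drawn. The medians lie lowest in HFD replicate 1 and highest in CF replicate 1, and those of HFD replicate 4 and CF replicate 4 are close.

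Within each diet, most members had the same lowest and the same highest library, while the order of the libraries between them varied. HFD replicate 1 was the lowest of the 4 HFD libraries in 70 of 74 members (33.9% of all genes tested), and HFD replicate 4 the highest in 62 (27.0%). CF replicate 1 was the highest of all 8 libraries, and so of the CF libraries, in all 74 (12.5% and 28.6%), and CF replicate 4 the lowest CF library in 73 (28.3%). HFD replicate 1 was the lowest of all 8 in 69 members (21.2%), and HFD replicates 1 to 3 were all below every CF library in 53 (4.72%).

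The diets met in their nearest libraries. HFD replicate 4 was above CF replicate 4 in 35 of 74 members (background 51.0%) but below CF replicates 1, 2 and 3 in 71 (31.7%). The median log2 CPM of the members relative to the CF mean was -2.25, -1.33, -1.17 and -0.84 in HFD replicates 1 to 4 and 0.48, 0.05, -0.05 and -0.80 in CF replicates 1 to 4. The mean log2 CPM of the neutrophil markers was 11.4, 8.94, 7.33 and 6.95 in HFD replicates 1 to 4 and 7.96, 9.68, 9.55 and 9.56 in CF replicates 1 to 4. Within HFD the order of the Snord medians was the reverse of the markers' order; within CF, replicate 1 was highest in Snord RNA and lowest in the markers, and replicates 2 to 4 were close to each other in the markers. Beyond the fit with these markers as a covariate, given above, the part of these cells in the Snord values was not tested.

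Of single members, Snord15a, a 148-nt snoRNA in an intron of the ribosomal protein gene Rps3 known as a guide for 28S rRNA, had the lowest p. Its level was 36.6, 40.4, 52.3 and 60.6 CPM in HFD replicates 1 to 4 and 153, 121, 115 and 87.0 CPM in CF replicates 1 to 4. Every HFD library was below every CF library, and the gap was set by HFD replicate 4 and CF replicate 4. The log2 fold change was -1.32 ± 0.21 (SE; edgeR, adjusted p = 0.043; exact two-sided permutation test of the CPM, p = 0.029, the smallest that 4 against 4 can give). Its edgeR adjusted p ranged from 0.000371 to 0.49 over the other edgeR fits that were made.

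Snord15b, which lies elsewhere in Rps3, in an exon only of retained-intron transcripts, and is 65.6% identical to Snord15a, was at 222, 395, 466 and 427 CPM in HFD replicates 1 to 4 and at 1027, 999, 774 and 694 CPM in CF replicates 1 to 4. The diets were apart here too (log2 fold change -1.21 ± 0.25 SE; edgeR, adjusted p = 0.088). Rps3 itself had a log2 fold change of 0.15 (adjusted p = 0.88).

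Snord17, the longest member at 238 nt and also a 28S guide, lies in an intron of the sorting nexin gene Snx5. It had 68.6, 84.9, 98.7 and 96.9 CPM in HFD replicates 1 to 4 and 282, 237, 196 and 143 CPM in CF replicates 1 to 4. The gap between the diets was wider than the spread within HFD but narrower than that within CF. The test fell just short of the threshold (log2 fold change -1.30 ± 0.22 SE; edgeR, adjusted p = 0.0502).

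Snord1b and Snord1c share the non-coding host 1810032O08Rik. Snord1b was at 8.44, 13.7, 13.9 and 18.2 CPM in HFD and at 61.3, 43.4, 35.3 and 22.4 CPM in CF, replicates 1 to 4 in turn, and Snord1c at 1.83, 3.02, 3.25 and 4.80 CPM and at 15.8, 11.8, 11.4 and 6.39 CPM. For both, every HFD library was below every CF library (log2 fold changes -1.58 and -1.81; edgeR, adjusted p = 0.095 and 0.075). The other snoRNA of that host, Snord1a, had 1, 3, 1 and 4 counts in HFD and 53, 26, 5 and 2 in CF, too few for the filter. Snord99, the other untested member, had 69 counts in HFD replicate 2 and between 2 and 13 in the other 7 libraries.

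Among the snoRNAs of rRNA processing, Snord118 (U8), which is needed to mature 5.8S and 28S rRNA and is transcribed from its own gene, differed most. It was at 150, 193, 191 and 288 CPM in HFD replicates 1 to 4 and at 961, 682, 654 and 386 CPM in CF replicates 1 to 4. No library overlapped, and CF replicate 1 was the highest (log2 fold change -1.71 ± 0.30 SE; edgeR, adjusted p = 0.057). Snord118 is also among the members with a near-identical copy in the table. Snord13 (U13), which has no host either, was at 267, 313, 318 and 377 CPM in HFD and 1178, 691, 681 and 391 CPM in CF. Its diets were apart by the narrow gap between both replicates 4 (log2 fold change -1.21; edgeR, adjusted p = 0.15). Snord22 (U22), needed for 18S processing and hosted by Snhg1, was at 64.0, 103, 175 and 179 CPM in HFD and at 483, 348, 353 and 232 CPM in CF (log2 fold change -1.44; edgeR, adjusted p = 0.15).

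The Snord14 (U14) genes of Hspa8, the constitutive heat shock protein, were among the members with the smallest difference. Snord14c had 157, 284, 334 and 326 CPM in HFD replicates 1 to 4 and 512, 437, 501 and 274 CPM in CF replicates 1 to 4. Here CF replicate 4 fell among the HFD libraries, as it did for Snord14d and Snord14e. The log2 fold changes were -0.65, -0.62 and -0.67 for Snord14c, Snord14d and Snord14e (edgeR, adjusted p from 0.45 to 0.57), and Snord14c and Snord14d are 97.7% identical. Snord14a, hosted by Rps13, had 1, 125, 77 and 198 counts in HFD and 372, 49, 239 and 43 in CF, and its log2 fold change of -0.87 ± 1.02 (SE) had an adjusted p of 0.90.

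The ribosomal protein gene Rpl13a hosts Snord32a, Snord33, Snord34 and Snord35a, which are known from cells under lipid-induced stress. Snord33, an 18S guide, was at 23.8, 28.1, 30.4 and 41.4 CPM in HFD and at 139, 91.9, 87.7 and 50.9 CPM in CF, with no overlap (log2 fold change -1.58 ± 0.30 SE; edgeR, adjusted p = 0.075). Snord32a was at 198, 333, 390 and 410 CPM in HFD and at 957, 791, 707 and 439 CPM in CF, also with no overlap. Snord34 and Snord35a did overlap, each through CF replicate 4, which was below HFD replicate 4. All 4 were lower at an unadjusted p below 0.05 (5.34% of all genes tested), with a median log2 fold change of -1.08, and 0 passed the adjustment (0.423%; adjusted p from 0.075 to 0.38), while Rpl13a had a log2 fold change of 0.13 (adjusted p = 0.93).

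By level per length over all 8 libraries, the highest members were Snord49b with 12051 CPM per kb, Snord80 with 6818, Snord104 with 6396, Snord32a with 6364 and Snord13 with 5068. This order is that of the CF means; by the HFD means, Snord49b was followed by Snord32a, Snord104, Snord80 and Snord14d, and Snord13 came after Snord83b and Snord14c as well. Snord49b, a 72-nt member, was at 280, 499, 589 and 743 CPM in HFD and at 1794, 1256, 1039 and 742 CPM in CF. HFD replicate 4 and CF replicate 4 were level here (log2 fold change -1.19 ± 0.35 SE; edgeR, adjusted p = 0.23). Snord104 overlapped as well (log2 fold change -1.18; adjusted p = 0.25), whereas Snord80, one of the 3 Snord genes in the table that lie in the non-coding gene Gas5, did not (log2 fold change -1.39; adjusted p = 0.14). Snord45c, an 18S guide hosted by Rabggtb, had a far lower level of 175 CPM per kb and a log2 fold change of -1.42 with no overlap (edgeR, adjusted p = 0.095). The 5 most abundant members of each library by counts held between 34.2% and 37.9% of its Snord counts.

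**Figure D2:**
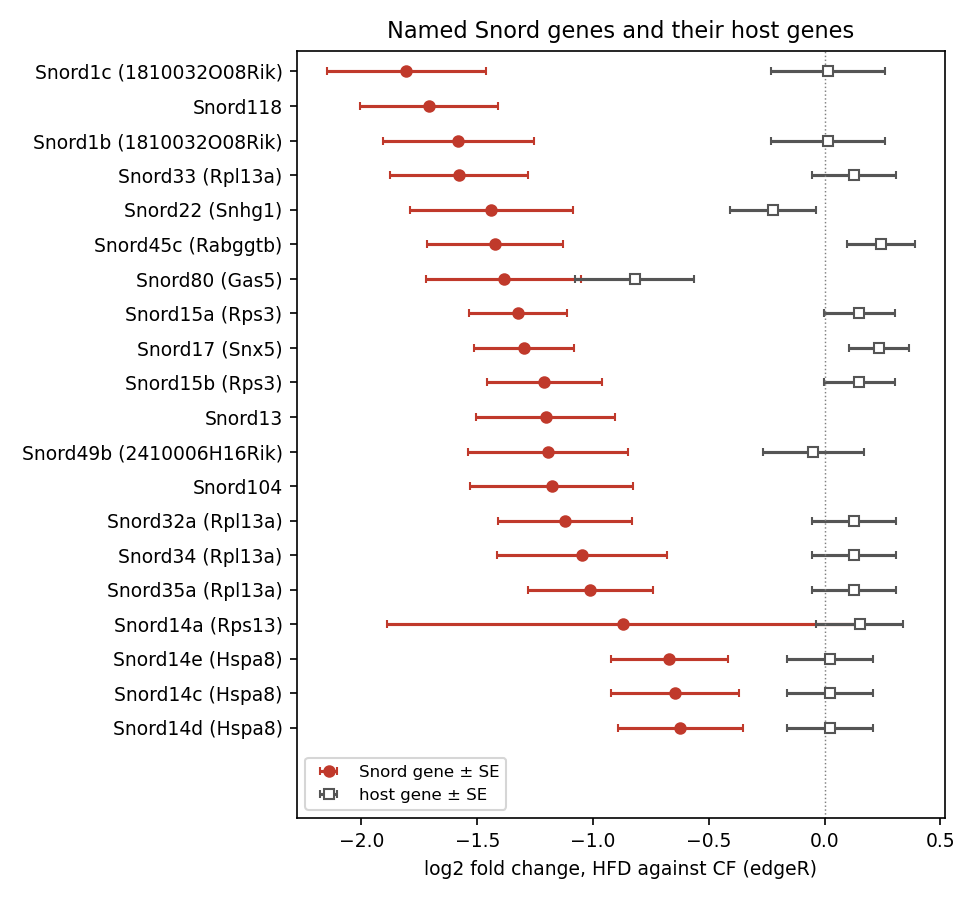
Log2 fold change of HFD against CF with its SE (horizontal axis, edgeR, 4 libraries per diet) for the named Snord genes (filled circles) and, in brackets, their host genes (open squares). The Snord genes lie between -1.81 and -0.62, and of the hosts drawn only Gas5 lies below -0.5.

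The host genes were centred near 0. Of the 50 hosts tested, 0 passed the adjusted threshold in edgeR, 4 were lower at an unadjusted p below 0.05 (1110038B12Rik, Sf3b3, Gas5 and Snhg12; 5.34% of all genes tested) and 0 were higher (3.22%), and their median log2 fold change was 0.04. In 70 of the 71 pairs with both values the member was below its host, by a median of 1.30 on the log2 scale (median difference -1.30). Spearman's rho between the log2 fold changes of members and hosts was 0.05 over 71 pairs, several of which share a host. The level per kb was above that of the host in 65 of 71 pairs, with a median ratio of 17.6. The length used for a host was that of all its annotated exons merged, including those of retained-intron transcripts.

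**Figure D3:**
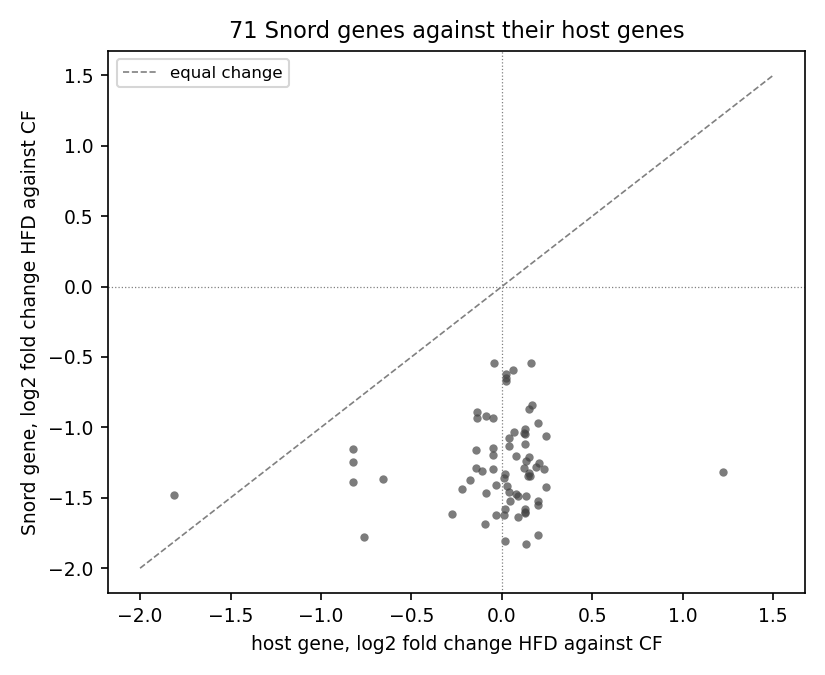
Log2 fold change of HFD against CF of 71 tested Snord genes (vertical axis) against that of their host genes (horizontal axis), with a dashed line at equal change. The Snord genes lie below 0 across the range of the hosts, and 70 of 71 lie below the dashed line.

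By position in the host, the median log2 fold change was -1.31 for the 35 members in an intron of every transcript, -1.34 for the 27 in exons of retained-intron transcripts, -1.29 for the 9 tested in other exons and -1.21 for the 3 without a host. By class of host, it was -1.24 for 21 members in ribosomal protein genes, -1.34 for 32 in other protein-coding genes and -1.34 for 18 in non-coding genes.

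The proteins that bind these RNAs were measured as mRNA. Of 13 genes for the box C/D core and its assembly, 0 passed the adjusted threshold in edgeR and 0 had an unadjusted p below 0.05 (5.34% of all genes tested lower and 3.22% higher), with log2 fold changes from -0.19 to 0.26. Fbl was at 0.09, Nop56 at -0.14, Nop58 at 0.09 and Snu13 at 0.11.

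Sorted by the RNA that their human counterparts are known to guide, the members were described list by list. The 21 tested 18S guides had a median log2 fold change of -1.29, with 18 lower at an unadjusted p below 0.05 (5.34% of all genes tested, here and for the lists that follow). The 30 tested 28S guides had one of -1.29, with 28 lower. The diets did not overlap in 7 of the 18S guides and in 16 of the 28S guides (3.58% of all genes tested, likewise). The 3 U6 guides, Snord7 and Snord8 among them, had a median of -1.47, with all 3 lower and not overlapping. The 2 guides of 5.8S rRNA had a median of -0.81, with 1 lower at an unadjusted p below 0.05 and 0 not overlapping, and the 7 processing snoRNAs described above one of -0.87, with 6 lower and 3 not overlapping. The lists share members: the Snord14 genes are also among the 18S guides, and the processing median is the value of Snord14a. The 2 tested members listed for both 18S and 28S had a median of -1.20, with both lower and not overlapping, and the 13 in no target list one of -1.35, with 11 lower and 5 not overlapping. Snord7, a 97-nt member, was at 6.93, 15.9, 11.5 and 22.3 CPM in HFD and at 82.1, 45.3, 42.2 and 24.9 CPM in CF (log2 fold change -1.78 ± 0.43 SE; edgeR, adjusted p = 0.15). The 17 members with an antisense run to 18S had a median of -1.42 and the 57 tested without one -1.30. The diets did not overlap in 5 of those 17 and in 31 of those 57 (3.58% of all genes tested). The H/ACA box snoRNAs, named Snora, which guide pseudouridylation instead, gave a median of -1.45 over 40 genes, with 4 called lower (0.423% of all genes tested) and 38 lower at an unadjusted p below 0.05 (5.34%).

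Transcript length was set beside the spread and the fold change. Over the 74 members, Spearman's rho of length was 0.03 with the log2 fold change, -0.50 with its SE and 0.51 with the level in HFD replicate 1 relative to HFD replicates 2 to 4. In the 19 members of 64 to 71 nt the median of that ratio was 0.29, and in the 15 of 94 to 238 nt it was 0.60. The diets did not overlap in 3 of those 19 and in 13 of those 15 (3.58% of all genes tested), and the median log2 fold changes were -1.41 and -1.33. The reads were 75 bp long, close to or above the length of the shortest members.

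At the extreme, 5 members had at most 1 count in HFD replicate 1 (6.76% of those tested, against 0.183% of all genes tested). Snord42a, a 65-nt 18S guide hosted by Rpl23a, had 0, 222, 442 and 611 counts in HFD and 1342, 783, 755 and 409 in CF. Snord52 had 1, 82, 92 and 191 counts in HFD and 357, 234, 213 and 144 in CF. Both overlapped between the diets, as did Snord95 and Snord14a, whereas Snord2, with 1, 39, 48 and 66 counts in HFD and 216, 89, 82 and 70 in CF, did not overlap. None of the 5 passed an unadjusted p of 0.05 in edgeR. The remaining 3 members above that p were Snord71, Snord73a and Snord82.

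**Figure D4:**
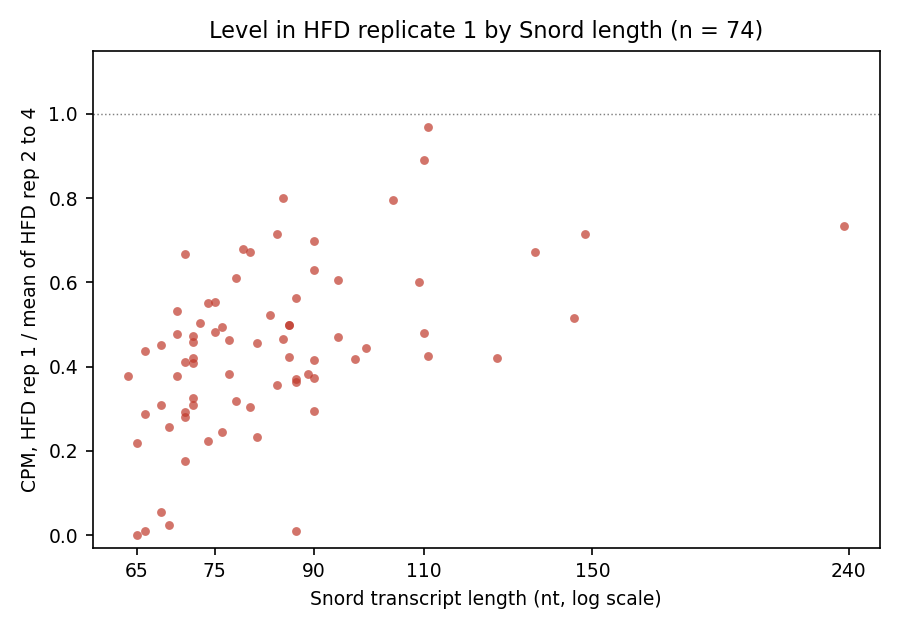
CPM in HFD replicate 1 over the mean of HFD replicates 2 to 4 (vertical axis) against transcript length in nt (horizontal axis, log scale) for the 74 tested Snord genes, with a dotted line at equal level. All lie below the line, the 5 lowest are those with at most 1 count in HFD replicate 1, and the members of 94 nt and more lie above 0.4.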

How the data were processed

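RNA of sorted CDPs was sequenced in 8 libraries (NuGEN Ovation Solo with targeted depletion of rRNA, paired reads of 75 bp). The authors aligned reads to GRCm38 with HISAT2 and counted uniquely mapped pairs per gene with StringTie on GENCODE annotation (submitters' processing notes and methods; versions not given in the sources used here). The deposited values are raw counts, without normalization. Columns share a prefix and were matched to samples by the sample number in their titles.

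Of 16119 identifiers, 16067 matched GENCODE vM21. The diets were compared with edgeR 4.0.16 under R 4.3.3 (filterByExpr, TMM, robust quasi-likelihood F test, diet as the only term), with Benjamini-Hochberg adjustment over all genes tested and a threshold of 0.05. CPM are TMM-scaled. Levels per length divide by the transcript's kilobases for members and by those of all annotated exons merged for hosts. Single values were compared by an exact two-sided permutation test over 70 draws. In simulated data, edgeR recovered 36.9% of genes changed 2-fold and 80.2% of those changed 4-fold, among 15752 genes, and 6.25% of its calls were false.

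Named members are those called, the 8 with the lowest p, the 5 with the highest level per length, those of Rpl13a and those of rRNA processing. Snord7, Snord8, Snord42a, Snord42b, Snord52 and the other members of at most 1 count, of an unadjusted p above 0.05 or untested were chosen for naming once their values had been seen. The annotation rule uses no values, but the choice of this gene set, the lists and the naming rule was made with earlier results of these data known. Target lists came from general knowledge.

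Alternatives were RLE factors, library size alone, scaling on protein-coding genes, no filter, 1 CPM in 4 libraries, DESeq2 1.42.0, limma 3.58.1 voom, a linear model for each gene, a replicate block, near-identical genes summed and each library left out. Added after seeing the data were both replicates 1 left out and a neutrophil marker covariate.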

Additional observations from a re-analysis of the deposited data

How the results depend on the processing

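The direction held across the alternatives: 74 of the 76 members had a log2 fold change below 0 in every fit that held them, the exceptions being Snord99, tested only by fits without the filter, and Snord14a, at 0.082 (adjusted p = 0.97) with HFD replicate 1 and CF replicate 1 both left out. The number called lower, 1 in edgeR with TMM (0.423% of all genes tested), is given with the share of all genes called lower in the same fit: 2 with RLE factors (0.429%), 5 with library size alone (0.619%), 2 with scaling on protein-coding genes (0.493%), 2 with a filter of 1 CPM in 4 libraries (0.535%), 45 with DESeq2 (3.13%), 3 with limma voom (0.442%), 0 with a linear model for each gene (0.0%), 0 with near-identical copies summed (0.0%), 8 without both replicates 1 (2.21%) and 61 with the neutrophil marker covariate (3.49%). It ranged from 0 to 8 when single libraries were left out (0.0% to 1.05%). The cause was not tested. With the replicate number as a block, 0 members were called (0.0%) and 43 were lower at an unadjusted p below 0.05 (4.26%), in place of 66 (5.34%). With the linear model 57 were lower at that p (5.11%), and with copies summed 63 (4.01%). Libraries of the same number did not deviate together (r = -0.44, -0.08, -0.23 and -0.18 for numbers 1 to 4). The labels do not state a pairing, and r from deviations within only 4 libraries per diet cannot settle it. When single libraries were left out, between 50 and 68 members were lower at an unadjusted p below 0.05 (4.60% to 9.76% of all genes tested, the latter without HFD replicate 1) and the median log2 fold change lay between -1.54 and -1.09. Library size alone moved the median of all genes from 0.05 to 0.25 and that of the members to -1.05. The ratio of the Snord shares, CF over HFD, was 2.33 per protein-coding count and 1.76 outside rRNA. With 4 libraries per diet the exact test cannot go below 0.029.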
